A study of Oryctolagus cuniculus with 4 samples.

Results

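The genes described here encode the proteins that fasten a muscle fiber to its basement membrane: laminin chains, the linkers between laminin and the rest of the membrane, integrin chains, and the dystrophin complex with dysferlin and the caveolins. They were chosen by symbol, as the features named for laminins, integrins, nidogens, perlecan (HSPG2), agrin, dystroglycan (DAG1), dystrophin, utrophin (UTRN), sarcoglycans, sarcospan (SSPN), syntrophins, dystrobrevins, dysferlin (DYSF) and caveolins. This rule found 43 of the 21139 features of the count tables, namely 7 laminin chains, 3 linkers, 11 integrin alpha chains, 4 integrin beta chains, UTRN and DAG1, 5 sarcoglycans with SSPN, 3 syntrophins with dystrobrevin alpha (DTNA), DYSF with 2 caveolins, and 3 other features with an ITGB name. No feature in the tables carried the names DMD, CAV3, ITGA7, ITGB1, LAMA5, LAMC1 or AGRN, so dystrophin itself, the muscle caveolin, the main muscle integrin pair, the laminin gamma chains and agrin were not analysed here.

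Laminins are trimers of an alpha, a beta and a gamma chain that polymerize around each fiber. They are held there by integrins and by dystroglycan, which reaches through the sarcolemma to dystrophin or its homolog utrophin and so to the actin cytoskeleton. The sarcoglycans and sarcospan steady dystroglycan in the membrane, syntrophins and dystrobrevin gather signaling proteins beneath it, dysferlin serves the resealing of torn membrane, and inherited loss of many of these proteins causes muscular dystrophy. The same laminins, integrins, utrophin and caveolins also occur in the walls of blood vessels and in connective and adipose tissue.

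Spatial transcripts were counted on Visium slides, on which each spot captures the RNA of a small area that can hold several fibers and cells. There were 4 sections of the rabbit supraspinatus muscle (female New Zealand White, 6 months old and skeletally mature), 1 per condition. Healthy muscle was used fresh in 1 and after 6 years of frozen storage in another, and the other 2 held muscle taken 2 weeks or 16 weeks after tenotomy, the cutting of the tendon used as a model of a rotator cuff tear, and stored as long. All were snap-frozen. In the labels the stored healthy and the 16-week section share an animal number with the letters R and L, whereas the fresh and the 2-week section carry other numbers, so that in those comparisons the condition and the animal cannot be told apart.

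The 4 sections held 6970 spots under tissue, between 854 and 2440 per section, and between 2699937 and 6366290 non-mitochondrial UMIs (unique molecular identifiers, each standing for 1 captured RNA molecule). Mitochondrial transcripts made up 49.3% of all UMIs in fresh and 49.2% in stored healthy muscle, but 33.8% at 2 weeks and 34.6% at 16 weeks, so levels are given as UMIs per 1000000 non-mitochondrial UMIs. The muscle label was checked with the sarcomere genes, which took a median of 19.1%, 19.6%, 23.4% and 12.3% of these UMIs per spot in fresh, stored, 2-week and 16-week muscle. With 1 section per condition there is no replicate check and no test, and each 95% interval covers counting error only. In a spot or a section, fewer cells of a type and less RNA per cell cannot be told apart.

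Over all sections 42775 UMIs belonged to the 43 genes. Of these genes, 19 had at least 200 UMIs, of which 17 are given in every section, 24 had between 1 and 128, and 8 of the 43 were at 0 in at least 1 section. A gene counts as compared when both groups together held at least 20 of its UMIs, and as higher or lower when its levels differed at least 2-fold (a log2 ratio of 1 or more). A sparse gene can meet this minimum through the group in which it is high, and its call then gives no support of its own.

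At 16 weeks, utrophin stood 3.93-fold and caveolin 2 stood 2.26-fold above stored healthy muscle, and alpha-sarcoglycan was 1.45-fold lower. Laminin beta 2, perlecan, ITGBL1 and the sparser nidogen 2, ITGA1, ITGA11, ITGB5 and SNTB2 were also at least 2-fold higher. Nidogen 2, ITGA11, ITGB5 and SNTB2 met the minimum of 20 UMIs through their 16-week counts. The genes higher were 10 of 31 compared, near the share of 30.2% among all 5989 genes compared. In muscle spots alone (defined below), utrophin and laminin beta 2 stayed past the 2-fold limit, while caveolin 2, perlecan and ITGBL1 lay inside it. Nidogen 2, ITGA1, ITGA11, ITGB5 and SNTB2 had too few UMIs there to be compared. For laminin beta 2, nidogen 2 and ITGB5, stored healthy muscle was the lowest section, below fresh healthy muscle as well. At 2 weeks, epsilon-sarcoglycan, ITGBL1 and laminin beta 2 were more than 2-fold higher while the caveolins, dysferlin and alpha-sarcoglycan lay within 1.07-fold of stored healthy muscle. In that comparison 5 of 28 genes were higher, against 12.4% of all 5650 genes compared. Within the 3 sections compared, LAMA2 was higher in spots rich in collagen transcripts than in muscle spots, at 2 weeks only at the 2-fold limit (interval 0.57 to 1.49). Of all genes compared, 20.2%, 15.2% and 31.2% were at least 2-fold higher there in stored healthy, 2-week and 16-week muscle. Alpha-sarcoglycan lay below its muscle level, by at least 2-fold at 16 weeks alone. Muscle spots were chosen by sarcomere share, and the difference of this muscle gene cannot be told apart from that choice.

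**Figure D1:**
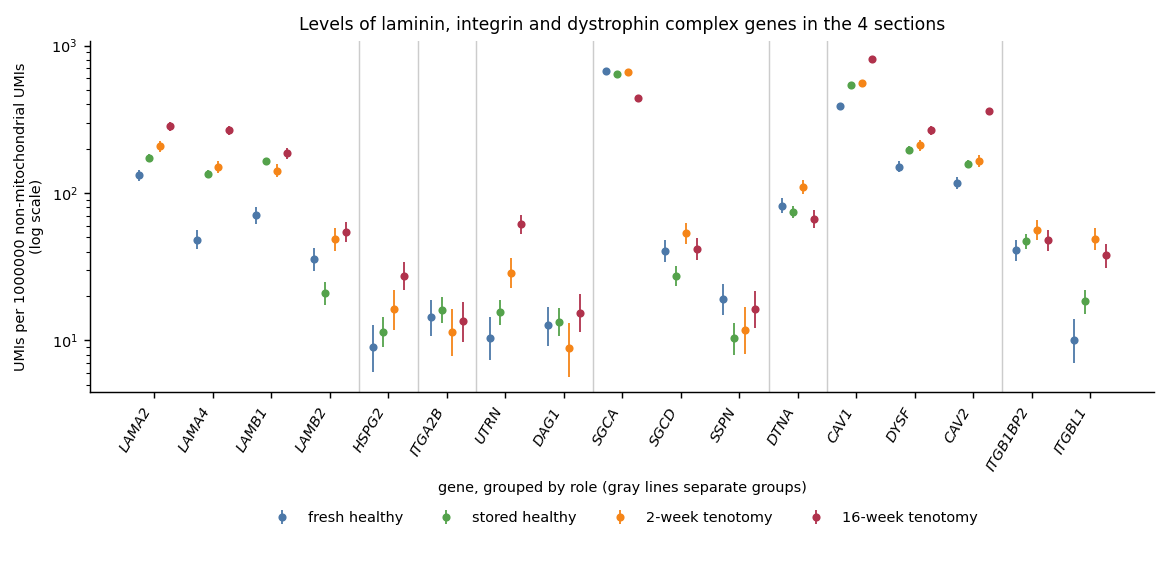
Level of 17 genes with at least 200 UMIs in each of the 4 sections (log axis, UMIs per 1000000 non-mitochondrial UMIs), with exact Poisson 95% intervals for counting error and 1 section per condition. UTRN climbs from 10.4 to 61.2 from the fresh to the 16-week section, CAV1, CAV2 and LAMA2 are highest at 16 weeks, and SGCA is lowest there at 440.

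The laminin chains of muscle were led in UMIs by LAMA2, the alpha chain of the laminin of the fiber surface. Its level was 132 in fresh, 174 in stored, 207 in 2-week and 283 in 16-week muscle. The 16-week level was the highest of the 4, with a log2 ratio to stored healthy muscle of 0.70 (95% interval 0.57 to 0.83). LAMA4, an alpha chain known from vessels and fat, had levels of 48.3, 135, 150 and 266 in the same order. The 16-week section lay 1.97-fold above the stored one, just inside the 2-fold limit, and stored and 2-week muscle hardly differed (log2 ratio 0.16, interval -0.02 to 0.33).

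LAMB1, the common beta chain, had levels of 70.5, 164, 141 and 186. The 3 stored sections lay close together, with log2 ratios to stored healthy muscle of 0.18 at 16 weeks and -0.21 at 2 weeks, and the fresh section stood below them. LAMB2, the beta chain enriched at the neuromuscular junction and in vessel walls, behaved differently, with levels of 35.4, 20.9, 48.5 and 54.5. Stored healthy muscle was its lowest section, so that both tenotomized sections were at least 2-fold above it (log2 ratio 1.38, interval 1.05 to 1.72 at 16 weeks, and 1.22, interval 0.86 to 1.57 at 2 weeks) and the fresh section lay between. LAMB3, a chain of epithelial laminin, was rarer, with 29, 48, 9 and 39 UMIs, and was lower at 2 weeks than in stored healthy muscle (log2 ratio -1.11, interval -2.39 to -0.13). LAMA1 and LAMA3 had 12 and 18 UMIs in all.

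Among the linkers, HSPG2, which encodes the large proteoglycan perlecan, had levels of 8.99, 11.5, 16.3 and 27.4. The order followed that of LAMA2, and the 16-week level was 2.39-fold that of stored healthy muscle (log2 ratio 1.26, interval 0.79 to 1.73). NID2, which ties laminin to collagen IV, rested on 9, 13, 17 and 20 UMIs and was higher than in stored healthy muscle at both times (log2 ratio 1.64 at 16 weeks and 1.61 at 2 weeks). NID1 had 27 UMIs in all and was compared between no sections.

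The integrin chains were sparse. ITGA2B, the alpha chain of the platelet fibrinogen receptor, was the only one with over 200 UMIs, and its levels of 14.3, 16.2, 11.5 and 13.5 had overlapping intervals in all 4 sections. The collagen-binding alpha chains ITGA1 and ITGA11 stood out at 16 weeks. ITGA1 had 8, 19, 12 and 33 UMIs, and ITGA11 had 7, 13, 4 and 30. At 16 weeks this put ITGA1 at 3.53-fold (log2 ratio 1.82, interval 0.98 to 2.73) and ITGA11 at 4.64-fold (2.21, interval 1.26 to 3.31) the stored healthy level, the latter being the largest ratio among the genes compared. ITGB5, which pairs with the alpha V chain, had 15, 11, 11 and 17 UMIs, or levels of 4.22, 1.73, 4.07 and 5.48. Stored healthy muscle was its lowest section, and the fresh level lay between those of the tenotomized sections. The log2 ratio of ITGB5 to stored healthy muscle was 1.64 at 16 weeks (interval 0.49 to 2.91). At 2 weeks it was 1.24, where the interval reached below 0 (-0.11 to 2.58). ITGA6, ITGAE, ITGAV and ITGB6 had between 41 and 75 UMIs each and were neither higher nor lower between any sections, ITGB8 had 30, and ITGA2, ITGA3, ITGA4, ITGA8, ITGA10 and ITGB7 had at most 10 over all 4.

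Utrophin is the homolog of dystrophin that in healthy muscle is found mainly at the neuromuscular junction and in vessels. UTRN levels were 10.4 in fresh, 15.6 in stored, 28.9 in 2-week and 61.2 in 16-week muscle, from 37, 99, 78 and 190 UMIs. Both tenotomized sections lay above both healthy ones with no overlap of the intervals, the 16-week section by a log2 ratio of 1.97 (1.62 to 2.34) and the 2-week section by 0.90 (0.45 to 1.34) over stored healthy muscle. In the 16-week section 151 spots had 1 or more of these UMIs and no spot had over 5. Spot positions were not used, so whether these spots lay together was not examined. DAG1, the receptor that binds laminin outside and dystrophin or utrophin inside, did not share this order, with levels of 12.6, 13.4, 8.89 and 15.5 and log2 ratios to stored healthy muscle of 0.22 at 16 weeks (interval -0.33 to 0.74) and -0.57 at 2 weeks (-1.31 to 0.08).

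The sarcoglycans were led in UMIs by SGCA, the alpha subunit, which is made almost only in striated muscle. Its levels were 670, 640, 662 and 440, so that fresh, stored and 2-week muscle lay together and the 16-week section stood apart below them. The log2 ratio to stored healthy muscle was -0.54 (interval -0.63 to -0.45) at 16 weeks and 0.05 (-0.03 to 0.13) at 2 weeks, and at 16 weeks SGCA was the 1 gene of 31 whose interval lay wholly below 0. SGCD, the delta subunit, had levels of 40.5, 27.5, 53.3 and 41.9, which put stored healthy muscle lowest and the 2-week section 1.94-fold above it.

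SGCE, the epsilon subunit, which many tissues make, had a different order from SGCA. It had 17, 36, 43 and 32 UMIs, or levels of 4.78, 5.65, 15.9 and 10.3, and was 2.81-fold higher at 2 weeks than in stored healthy muscle (log2 ratio 1.49, interval 0.82 to 2.17). At 16 weeks its log2 ratio was 0.87 (0.13 to 1.60). SGCB, the beta subunit, had 26, 37, 11 and 11 UMIs, and its intervals spanned 0 in each comparison between sections. SSPN, the small protein with membrane-spanning stretches that joins the sarcoglycans, was highest in fresh muscle (levels 19.1, 10.4, 11.9 and 16.4).

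DTNA, which binds syntrophins to the complex, was highest at 2 weeks (levels 82.1, 74.3, 110 and 66.7). SNTB2, a beta syntrophin, was sparse with 1, 9, 7 and 14 UMIs, and was higher at 16 weeks than in stored healthy muscle (log2 ratio 1.65, interval 0.36 to 3.06). SNTB1 had 18 UMIs in all.

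Caveolins 1 and 2 form the coat of caveolae, the small membrane pits abundant in endothelial cells and adipocytes. CAV1 levels were 388, 542, 558 and 808, and CAV2 levels were 117, 158, 165 and 357. For both genes stored healthy and 2-week muscle lay together and the 16-week section stood above, by a log2 ratio of 0.57 (0.50 to 0.65) for CAV1 and 1.18 (1.05 to 1.30) for CAV2. DYSF, which encodes dysferlin, had levels of 150, 196, 211 and 267 and a log2 ratio of 0.44 (0.32 to 0.57) at 16 weeks.

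The 3 other features with an ITGB name do not encode integrin chains. ITGBL1, a secreted protein with integrin-like repeats, had levels of 10.1, 18.4, 48.9 and 37.7, and both tenotomized sections were at least 2-fold above the stored healthy one (log2 ratio 1.41, interval 1.04 to 1.78 at 2 weeks, and 1.04, interval 0.65 to 1.42 at 16 weeks). ITGB1BP2 encodes melusin, a muscle protein that binds the tail of the integrin beta 1 chain. Its levels of 41.0, 47.0, 56.3 and 48.0 were alike in stored healthy and 16-week muscle (log2 ratio 0.03, interval -0.26 to 0.32). ITGB3BP, a nuclear protein, had 14 UMIs.

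**Figure D2:**
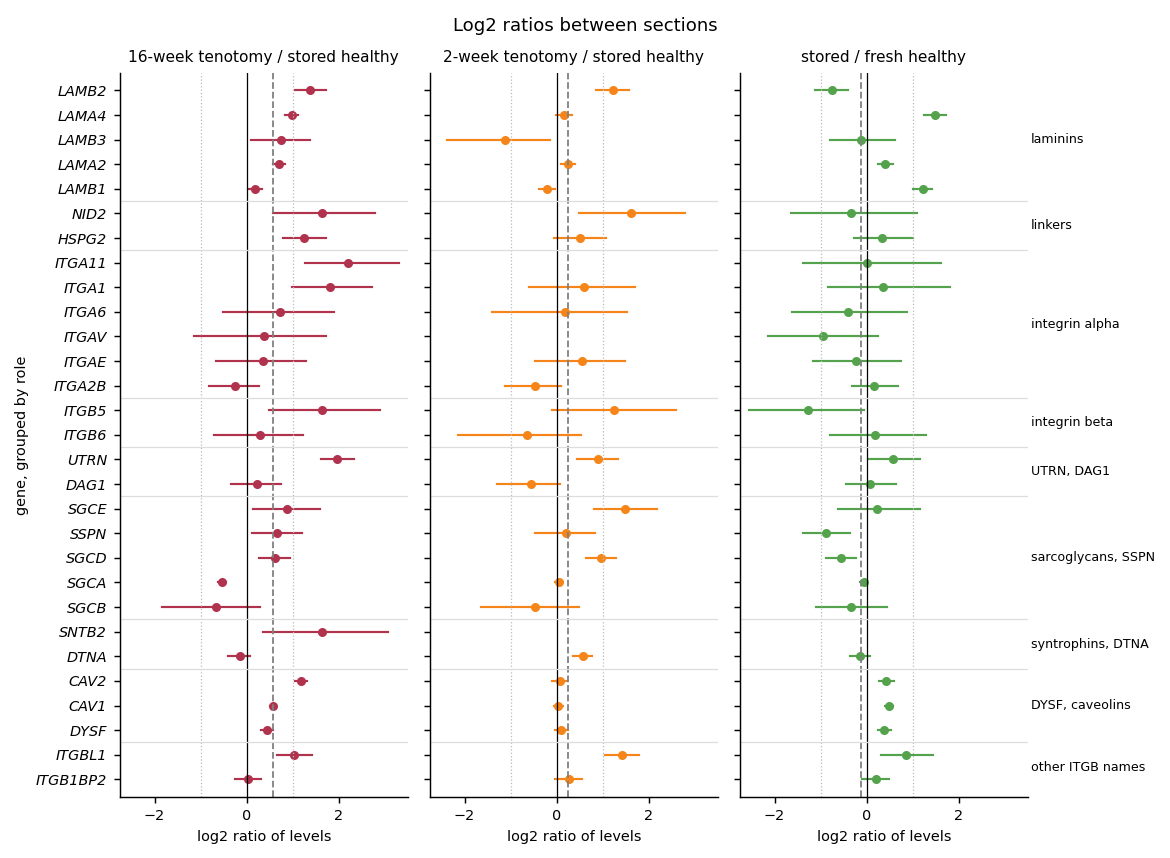
Log2 ratio of levels between sections for genes compared, with 95% intervals for counting error; the dashed line is the median of all genes compared, dotted lines mark a 2-fold difference and n is 1 section on each side. At 16 weeks UTRN and CAV2 lie right of the dashed line with narrow intervals and SGCA lies left of 0, whereas at 2 weeks SGCA, CAV1, CAV2 and DYSF lie near 0.

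Counted together, 31 of the 43 genes could be compared between the 16-week and the stored healthy section. Of these, 10 were at least 2-fold higher (ITGA11, UTRN, ITGA1, SNTB2, ITGB5, NID2, LAMB2, HSPG2, CAV2 and ITGBL1) and 0 were lower. Among the 5989 genes compared there, 30.2% were higher and 3.76% were lower, so the share of higher genes was near the background. SNTB2, ITGB5, NID2 and ITGA11 had 9, 11, 13 and 13 UMIs in stored healthy muscle and met the minimum of 20 UMIs through their 16-week counts. At an equal level they would not have been compared. The median log2 ratio was 0.67 over the 31 and 0.57 over all genes. Relative to that median, the log2 ratio of UTRN was 1.40, of LAMB2 0.81, of CAV2 0.61, of LAMA2 0.13, of CAV1 0.00, of DYSF -0.13, of LAMB1 -0.39 and of SGCA -1.11, and the count became 6 higher and 2 lower, SGCA and SGCB. With mitochondrial UMIs in the scale, the median of all genes was 0.94, and 16 of the genes were higher and 0 lower.

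Markers of other cell types moved in the same comparison. All 3 adipose markers compared were higher at 16 weeks (summed level 2044 against 584, LEP at 0 in both), as were 5 of 10 macrophage markers (797 against 399) and 3 of 4 smooth muscle and pericyte markers (645 against 296). For the endothelial list 1 of 5 was higher (460 against 447). Of 8 fibroblast markers DCN and FBN1 were higher and 0 lower (11988 against 7941). MZB1 and JCHAIN, the 2 lymphocyte genes compared, were higher (51.3 against 2.20). Of 4 satellite cell and regenerating fiber genes MYL4 was higher and MYH8 lower (238 against 174). Of 17 sarcomere genes 0 were higher and 3 lower (140424 against 198608). Their part in the ratios was not tested. The ratios were also taken in muscle spots alone, meaning spots with no COL1A1 UMI, at least 500 UMIs and a sarcomere share at or above the median of their section. That median was 12.3% at 16 weeks and 19.6% in stored healthy muscle, so the muscle spots were not matched in composition. Between them adipose markers still summed to 1522 against 564, macrophage markers to 408 against 186 and sarcomere genes to 181260 against 222418. The adipose sums do not show which genes carried them. Fibroblast markers summed to 5846 against 4811. Endothelial markers summed to 330 against 312. In the 683 such spots at 16 weeks and 853 in stored healthy muscle, UTRN levels were 39.7 and 11.2 (log2 ratio 1.81, interval 1.14 to 2.56). There LAMB2 remained past the 2-fold limit (1.03), while CAV2 (0.76), HSPG2 (0.58) and ITGBL1 (0.56) lay inside it. ITGA1, ITGA11, ITGB5, NID2 and SNTB2 had too few UMIs in these spots to be compared. SGCA was still below stored healthy muscle, with levels of 534 and 693 (log2 ratio -0.38), and LAMB1 had the opposite sign (-0.17). Of the 21 genes with enough UMIs in muscle spots 2 were higher and 1 lower, the latter being SGCB with 5 against 15 UMIs. SGCB met the minimum of 20 UMIs through the stored healthy spots.

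At 2 weeks, 28 genes could be compared with stored healthy muscle. NID2, SGCE, ITGBL1, ITGB5 and LAMB2 were higher, 5 in all, against 12.4% of the 5650 genes compared, and 1 was lower, LAMB3, against 4.18%. NID2 and ITGB5, with 13 and 11 UMIs in stored healthy muscle, met the minimum of 20 UMIs through their 2-week counts. The median log2 ratio was 0.26 for the 28 and 0.25 for all genes. With mitochondrial UMIs in the scale, 8 genes were higher and 0 lower, with SGCD and UTRN among those added, and the median of all genes was 0.63. Fibroblast markers moved in this comparison, 4 of 8 being higher and 1 lower (summed level 19755 against 7941), while of 10 macrophage markers 1 was higher and 3 lower. Of 17 sarcomere genes the fast-fiber genes ACTN3, MYH1 and MYH4 were higher. The slow-fiber genes TNNC1, MYL3, MYOZ2 and MYL2 were lower. Of 4 satellite cell and regenerating fiber genes MYL4 and MYH8 were higher (summed list 417 against 174). Smooth muscle and pericyte markers summed to 509 against 296, adipose markers to 946 against 584 and endothelial markers to 437 against 447. The part of these markers in the ratios was not tested. In muscle spots alone, of which the 2-week section had 137, SGCD (log2 ratio 1.72) and LAMB2 (1.11) were among the genes higher and LAMB1 was lower (-1.05). Fibroblast markers in these spots still summed to 8450 against 4811 in stored healthy muscle, and macrophage markers to 148 against 186. ITGBL1 there lay at 0.22, from 6 UMIs at 2 weeks, and NID2 had 0 against 3 UMIs, too few to give a direction.

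Stored healthy and fresh healthy muscle, which come from different animals, differed by at least 2-fold in 4 of 30 genes. LAMA4 (log2 ratio 1.48, interval 1.24 to 1.73) and LAMB1 (1.21, interval 1.02 to 1.42) were higher in the stored section, 2 genes against 9.37% of the 5720 compared. On the lower side were 2 genes, among them ITGB5 (-1.27, interval -2.55 to -0.07), against 11%. The median log2 ratio was 0.04 for the 30 genes and -0.11 for all. In muscle spots alone LAMA4 (1.34) and LAMB1 (1.22) kept their side of the limit. Fibroblast markers (7 of 8 higher, summed level 7941 against 2629) and macrophage markers (10 of 10 higher, 399 against 96.4) were also higher in the stored section. In muscle spots alone these lists still summed to 4811 against 2142 and to 186 against 91.3. Of 17 sarcomere genes the slow-fiber genes TNNC1, MYL3, MYOZ2, MYH7 and MYL2 were higher in the stored section. The fast-fiber genes ACTN3 and MYH1 were lower. NCAM1, MYL4 and MYH8 of the satellite cell and regenerating fiber list were higher (summed list 174 against 29.8). Endothelial markers summed to 447 against 270, adipose markers to 584 against 684 and smooth muscle and pericyte markers to 296 against 355. The part of all these markers in the laminin ratios was not tested.

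Where the transcripts lay was read from 2 kinds of spots. COL1A1 spots held at least 3 UMIs of COL1A1, a fibrillar collagen gene of connective tissue, and were set against the muscle spots of the same section. There were 100 COL1A1 spots in stored healthy, 245 in 2-week and 66 in 16-week muscle, and 5 in fresh muscle, too few to compare. The COL1A1 spots were not free of fibers. Sarcomere transcripts took a median of 19.0%, 22.2% and 3.53% of their UMIs in stored, 2-week and 16-week muscle, against 21.9%, 25.4% and 17.3% in muscle spots. At 16 weeks the COL1A1 spots were also shallower, with a median of 1892 UMIs against 3727.

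**Figure D3:**
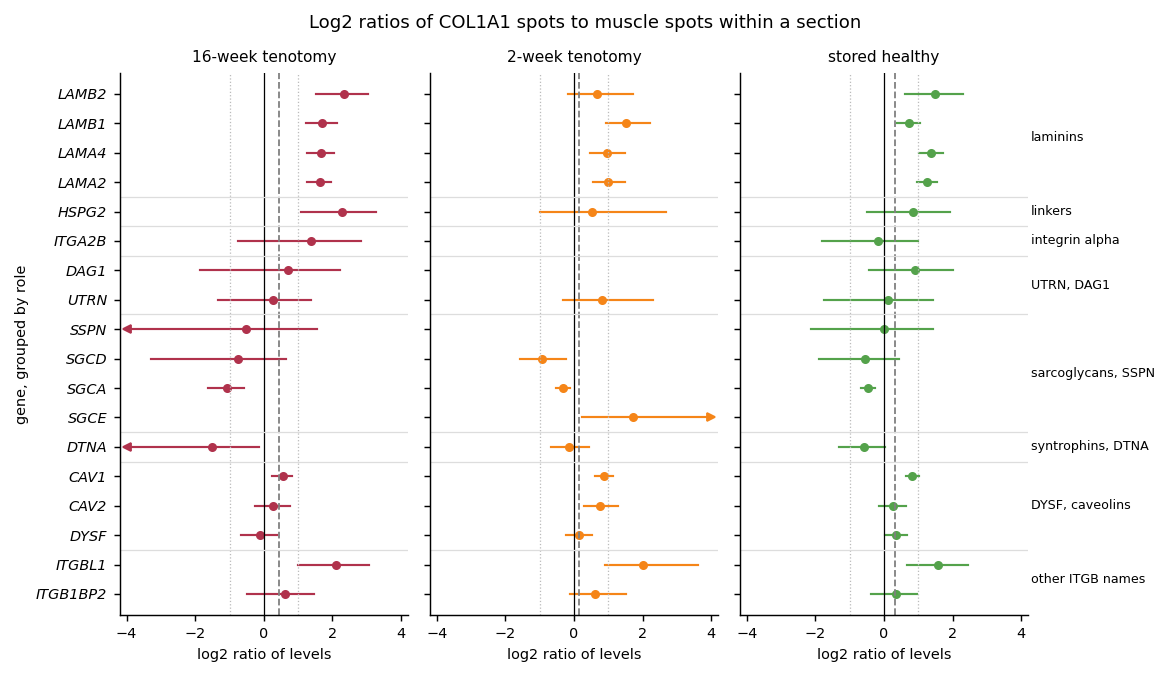
Log2 ratio of levels in COL1A1 spots to levels in muscle spots of the same section, with 95% intervals for counting error (arrows mark intervals that run past 4 log2 units), the median of all genes compared (dashed) and a 2-fold difference (dotted). LAMA2, LAMA4, LAMB1 and ITGBL1 lie right of 0 with their whole interval in all 3 sections, and SGCA lies left of 0 in all 3.

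Of the 7 laminin chains 4 could be compared, of which 3 were at least 2-fold higher in COL1A1 spots in stored healthy, 2 in 2-week and 4 in 16-week muscle. The shares over all genes compared were 20.2%, 15.2% and 31.2%. LAMA2 levels were 318 against 133 in stored healthy, 257 against 127 in 2-week and 607 against 198 in 16-week muscle, or log2 ratios of 1.26 and 1.62 in stored healthy and 16-week muscle and a value at the 2-fold limit at 2 weeks (interval 0.57 to 1.49). LAMA4 levels were 237 against 91.1 in stored healthy and 525 against 168 in 16-week muscle, and its log2 ratios were 1.38, 0.96 and 1.66. For LAMB1 the log2 ratios were 0.72, 1.53 and 1.70. LAMB2 had 1.49, 0.67 and 2.33, with an interval that spanned 0 at 2 weeks (-0.18 to 1.71). HSPG2 was at least 2-fold higher at 16 weeks (2.27, interval 1.07 to 3.28), from 11 UMIs in COL1A1 spots. ITGBL1 was higher throughout, with 1.59, 2.01 and 2.11.

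Among the sarcoglycans, SGCA had lower levels in COL1A1 spots. Its levels in COL1A1 and muscle spots were 506 and 693 in stored healthy, 637 and 792 in 2-week and 252 and 534 in 16-week muscle. The log2 ratios of -0.45, -0.32 and -1.07 had intervals below 0 in all 3 sections, and only the last passed the 2-fold limit. Sarcomere genes, which chose the muscle spots, summed to 58889 in COL1A1 and 181260 in muscle spots at 16 weeks. As SGCA is also a gene of striated muscle, its difference cannot be told apart from this choice of spots. SGCE had the opposite sign to SGCA at 2 weeks, the 1 section with enough of its UMIs, with 29 UMIs in COL1A1 spots and 3 in muscle spots (log2 ratio 1.73, interval 0.24 to 4.29). SGCD was lower in COL1A1 spots at 2 weeks (-0.92, interval -1.58 to -0.24). DTNA passed the limit downward at 16 weeks (-1.51), from 3 UMIs in COL1A1 spots.

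CAV1 was higher in COL1A1 spots in all 3 sections, inside the 2-fold limit, with log2 ratios of 0.83, 0.88 and 0.55. UTRN did not differ beyond counting error between these spots in any section, with ratios of 0.11, 0.82 and 0.26 and intervals that all reached below 0. DYSF ratios were 0.36, 0.14 and -0.11.

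In stored healthy muscle 4 of 19 genes compared were higher in COL1A1 spots (ITGBL1, LAMB2, LAMA4 and LAMA2), against 20.2% of 3676 genes, and 0 were lower, against 5.33%. At 2 weeks 4 of 17 were higher (ITGBL1, SGCE, LAMB1 and LAMA2), against 15.2% of 3101 genes, and 0 lower, against 1.68%. Of these, SGCE met the minimum of UMIs through its COL1A1 spots. At 16 weeks 7 of 19 were higher (LAMB2, HSPG2, ITGBL1, LAMB1, LAMA4, LAMA2 and ITGA2B, the last from 4 UMIs), against 31.2% of 3620 genes, and 2 lower (DTNA and SGCA), against 12.3%. The medians of all genes were 0.31, 0.16 and 0.44, and those of the genes described here 0.35, 0.67 and 0.55. Relative to the median of all genes, the 2-week count became 3 higher and 1 lower (SGCD) and the 16-week count 6 higher and 3 lower, while with mitochondrial UMIs in the scale the 16-week count was 10 higher and 1 lower. Macrophage markers were higher in these COL1A1 spots in 8 of 8, 5 of 6 and 8 of 8 cases (summed levels 1730, 508 and 2982 against 186, 148 and 408), and the smooth muscle genes ACTA2 and MYH11 in all 3 sections (summed list 568, 733 and 1110 against 171, 177 and 240). The endothelial genes VWF and PECAM1 were higher in the stored healthy and 16-week sections. Of the satellite cell and regenerating fiber list, MYL4 and MYH8 were higher in all 3 sections (summed list 486, 663 and 1162 against 113, 138 and 170), and the lymphocyte gene JCHAIN was higher at 16 weeks. The part of these cells in the laminin ratios was not tested.

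**Figure D4:**
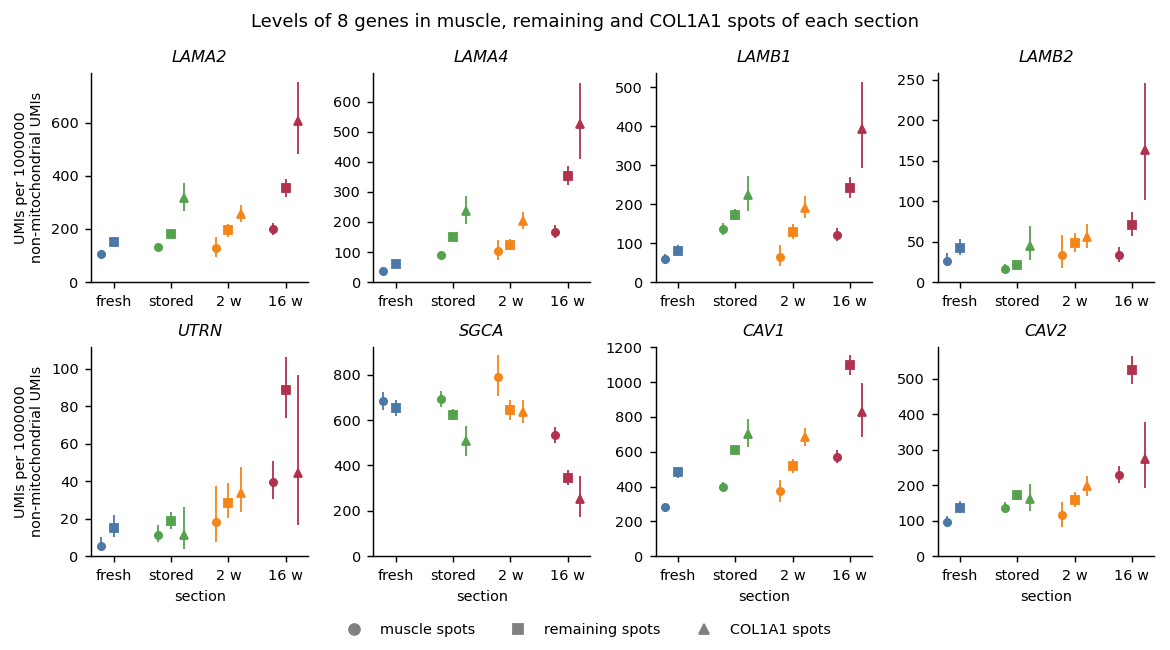
Levels of 8 genes (linear axes from 0, UMIs per 1000000 non-mitochondrial UMIs) in muscle spots, remaining spots and COL1A1 spots of each section, with exact Poisson 95% intervals for counting error; COL1A1 spots of the fresh section, 5 in number, are left out. UTRN, CAV1 and CAV2 at 16 weeks are highest in the remaining spots, at 88.7, 1099 and 524, while the laminins are highest in COL1A1 spots. For UTRN the interval of the remaining spots overlaps that of the COL1A1 spots, which rests on 6 UMIs.

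The spots that were neither kind, with at least 500 UMIs, numbered 931, 1427, 441 and 843. At 16 weeks these remaining spots held the highest levels of UTRN (88.7, interval 73.4 to 106, against 39.7 in muscle spots), CAV1 (1099 against 570) and CAV2 (524 against 228). In stored healthy muscle the corresponding levels were 18.5 against 11.2, 611 against 397 and 172 against 135. Adipose markers followed the same order at 16 weeks, with a summed level of 2722 in remaining spots, 1613 in COL1A1 spots and 1522 in muscle spots. In stored healthy muscle the list summed to 593, 613 and 564 in these kinds of spots. LEP was at 0 in both sections, and the sums do not show which of the other genes carried them. Smooth muscle and pericyte markers summed to 1084, 1110 and 240 in remaining, COL1A1 and muscle spots at 16 weeks and were thus highest in COL1A1 spots. So were endothelial markers (556, 1088 and 330) and macrophage markers (1048, 2982 and 408). Sarcomere genes summed to 99629 in the remaining and 181260 in the muscle spots of the 16-week section, which is no result because they chose the muscle spots. SGCA was lower in the remaining spots (346 against 534), which cannot be told apart from the same choice of spots. What these markers contribute to the caveolin and utrophin levels was not tested.

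Slow and fast fibers were compared within the muscle spots of the healthy sections, as the upper and lower tertile by MYH7, the slow myosin, as a share of MYH7 and the fast MYH1 (285 against 283 spots in fresh, 284 against 285 in stored muscle). SGCA was lower in slow spots in both, with a log2 ratio of -0.29 (-0.50 to -0.08) in fresh and -0.52 (-0.70 to -0.34) in stored muscle. CAV1 was higher in both, by 0.42 (0.10 to 0.75) and 0.68 (0.43 to 0.93). Neither difference reached 2-fold. In stored muscle the slow spots also had higher DYSF (0.76, interval 0.41 to 1.13), LAMA4 (0.82, interval 0.33 to 1.34), LAMA2, CAV2 (both 0.68) and ITGB1BP2 (0.92, interval 0.18 to 1.73). In fresh muscle the intervals of all 5 spanned 0, and LAMB1 was the laminin whose interval lay above it (0.88, interval 0.11 to 1.72).

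**Figure D5:**
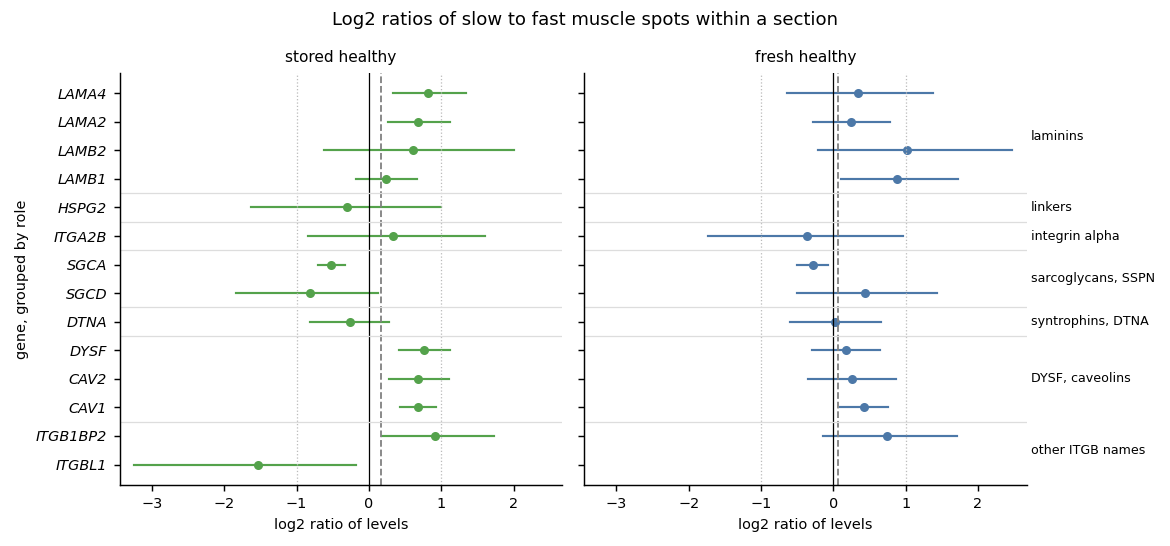
Log2 ratio of levels in slow to levels in fast muscle spots of the 2 healthy sections, with 95% intervals for counting error, the median of all genes compared (dashed) and a 2-fold difference (dotted). SGCA lies left of 0 and CAV1 right of 0 in both sections.

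Past the 2-fold limit, 1 of 14 genes was higher in slow spots of fresh muscle, LAMB2 with 18 against 8 UMIs (1.02, interval -0.21 to 2.47), against 4.95% of 2565 genes, and 0 were lower, against 1.25%. In stored muscle 0 of 16 were higher, against 8.66% of 2794 genes, and 1 was lower, ITGBL1 with 6 against 16 UMIs, against 3.76%. Other markers differed between the same spots. In stored muscle the macrophage list summed to 285 in slow and 117 in fast spots and the fibroblast list to 6488 and 3916. In fresh muscle the macrophage list summed to 118 and 67.0 and the fibroblast list to 2243 and 2051. The adipose list summed to 900.2 in slow and 337 in fast spots of fresh muscle and to 758 and 353 in stored muscle. Its 1 gene compared, LPL, was higher in both, while LEP was at 0, as was ADIPOQ in fresh muscle. These sums therefore do not show a difference in adipose tissue. The part of the marker genes in the slow to fast ratios was not tested.

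Genes that work with these proteins were counted from lists, to be read against the 30.2% of all genes higher at 16 weeks and the 12.4% higher at 2 weeks. Of 16 focal adhesion and costamere genes compared at 16 weeks against stored healthy muscle, 7 were higher (among them TLN1, PARVA, TNS1, ANK2, VCL and BCAR1) and 0 lower, with a median log2 ratio of 0.92 against 0.57 for all genes, and at 2 weeks 1 of 15 was higher (BCAR1), with a median of 0.29 against 0.25. In stored against fresh healthy muscle 0 of 16 were higher and 3 lower, among them FLNC and BCAR1, against 9.37% and 11% of all genes. The list median there was -0.61 against -0.11 for all genes. The summed level of the list was 1916 in fresh, 1046 in stored and 1531 in 16-week muscle. The proteins of this list tie integrins and dystroglycan to the cytoskeleton, as talin (TLN1) and vinculin (VCL) do. Of 8 further genes of caveolae and membrane repair 3 were higher at 16 weeks (ANXA1, CAVIN2 and ANXA5, list median 0.80), and of 7 at 2 weeks 0 were higher and 0 lower (list median 0.07). Of 6 enzymes that build the laminin-binding sugar of dystroglycan, 1 was higher at 16 weeks (GMPPB, list median 0.37). In stored against fresh healthy muscle 3 of 6 were lower, among them GMPPB and B3GALNT2, against 11% of all genes. Of 4 neuromuscular junction genes CHRNE, the adult acetylcholine receptor subunit, was higher at both times (list medians 0.60 at 16 weeks and 0.06 at 2 weeks). Of 6 other basement membrane and pericellular matrix genes 3 were higher at 16 weeks (FBLN2, COL4A1 and DCN, list median 0.95) and 0 at 2 weeks (list median 0.43), and in COL1A1 spots 5, 3 and 5 of 6 were higher in stored healthy, 2-week and 16-week muscle, against 20.2%, 15.2% and 31.2% of all genes.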

How the data were processed

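Transcripts were counted in 1 Visium section of rabbit supraspinatus per condition. The authors deposited raw UMI counts per gene and spot under tissue, made with Space Ranger 1.2.0 on OryCun2.0 with Ensembl annotation after manual image alignment in Loupe Browser. The capture is at the 3′ end, so levels are not compared between genes. Lists of barcodes only named the spots, and spot position files were not used here.

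All 6970 spots were summed by section or spot group. The 37 mitochondrial genes were recognized by neighboring identifiers and left out of the scale. Log2 ratios of summed counts had 0.5 UMI added and exact conditional (Clopper-Pearson) 95% intervals, and levels had exact Poisson 95% intervals. Both cover counting error only. The ratio intervals alone were tried on simulated data, drawn as Poisson counts, the model they assume. Genes with at least 20 UMIs in both groups together were compared, leaving out the genes that chose the spots (COL1A1 and 18 sarcomere genes found of 29 listed, or MYH1 and MYH7) from the all-gene shares. Members with at least 200 UMIs were named with their level in every section, and rarer ones where they passed 2-fold. Counts cover every member, but results for a few genes are not reported here. Members and lists were chosen with earlier results of these data known. Alternatives covered the scaling, the UMI minimum and the spot definitions. Sums and ratios were computed in Python 3.11.15 with pandas 2.3.3 and numpy 2.4.6, intervals with scipy 1.17.1, and figures with matplotlib 3.10.9.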

Additional observations from a re-analysis of the deposited data

How the results depend on the processing

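Limits come first from the design. No paired analysis was possible because each condition had 1 section and the only shared animal number joins 1 section of each of 2 groups, and for the same reason leaving out a replicate does not apply. Intervals cover counting error of UMIs only. Members with few UMIs carry wide intervals, and none of the counts of higher or lower members was tested.

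Over the other scalings, minimums and spot definitions, 48 counts of members moved by at most 1.5 times and 42 by more. With the UMIs of all genes as the scale, members higher became 16 at 16 weeks and 8 at 2 weeks with 0 lower, 8 for COL1A1 spots of stored muscle, 1 lower for those of 16-week muscle, and 0 higher for slow spots of fresh muscle. Centred on the median of all genes, they became 6 higher and 2 lower at 16 weeks, 3 higher at 2 weeks, 1 lower for COL1A1 spots at 2 weeks and 0 higher for slow spots of fresh muscle. With a minimum of 100 UMIs, 5 were higher at 16 weeks, 2 higher and 0 lower at 2 weeks, 1 lower in stored against fresh muscle, 2, 2 and 3 higher in COL1A1 spots of stored, 2-week and 16-week muscle, 0 higher in slow spots of fresh and 0 lower in those of stored muscle. With a minimum of 1 UMI, 16 were higher and 2 lower at 16 weeks, 9 and 4 at 2 weeks, 7 and 6 in stored against fresh muscle, 12 and 2, 10 and 1, and 19 higher in COL1A1 spots of stored, 2-week and 16-week muscle, 8 and 4 in slow spots of fresh and 5 and 3 in those of stored muscle. Fewer or more genes were compared under these minimums.

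COL1A1 spots from 1 UMI gave 2 higher in stored and 0 lower in 16-week muscle, and from 5 UMIs 7 higher and 1 lower in stored muscle. The latter was not run at 16 weeks, where 17 spots were left. Without a sarcomere limit on muscle spots, 1 was lower in stored and 2 higher in 2-week muscle. Splitting muscle spots at the median MYH7 share gave 0 higher in fresh muscle. The cause of these moves was not tested. Among alternatives added after seeing the data, muscle spots alone gave 2 higher and 1 lower at 16 weeks, 3 higher at 2 weeks and 1 lower in stored against fresh muscle, and NID2 at 2 weeks had a ratio of -0.27, which rests on 0 against 3 UMIs and the 0.5 UMI added and shows no reversal. Without the spot richest in each gene, 4 were lower in COL1A1 spots at 16 weeks (DTNA, SGCA, SGCD and SSPN) and 0 in slow spots of stored muscle, where ITGBL1 no longer had enough UMIs. SGCD and SSPN had 3 and 1 UMIs in those COL1A1 spots before this step, which by itself took SSPN to 0. Their calls give no support of their own.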
